A study of Mus musculus with 120 samples.

Results

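The delta protocadherins Pcdh1, Pcdh7, Pcdh9, Pcdh10, Pcdh17 and Pcdh19 were followed across projection neurons of the mouse thalamus. They were taken by gene symbol as members of 1 gene family and are 6 of the 16538 genes in the count table. All 6 passed the filter on low counts. Neurons of 22 thalamic nuclei were labelled from the region their axons reach, microdissected, sorted by hand as pools of 14 to 200 cells and sequenced as bulk RNA, which gave 120 libraries in 24 groups of nucleus and tracer.

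The tracer was DiI, a lipophilic dye, in 92 libraries. It was a retrograde AAV (rAAV2retro), a virus taken up by axon endings, in 28, of which 19 expressed GFP and 9 tdTom. PVT (paraventricular), IMD (intermediodorsal), CL (central lateral), PCN (paracentral), CM (central medial), PF (parafascicular) and SPA (subparafascicular area) were labelled from the striatum with AAV, and CM also with DiI. The 15 other nuclei were labelled from cortex with DiI, and AM also with AAV in a single library. LGd (dorsal lateral geniculate) and LP (lateral posterior) came from primary visual cortex in animals that also had CTB in the eyes. VA (ventral anterior), VL (ventrolateral) and VM (ventromedial) came from primary motor cortex in animals that also had virus in SNr and DCN. PO (posterior) and VB (ventrobasal) came from barrel cortex. Retrosplenial cortex gave LD (laterodorsal), AV (anteroventral) and AD (anterodorsal), while AM (anteromedial), RE (reuniens) and IAD (interanterodorsal) came from cingulate cortex. MD (mediodorsal) was labelled from orbital cortex and VPMpc (parvicellular ventral posteromedial) from insular cortex. The recorded genotype was wildtype in 119 libraries, and VA replicate 6 came from an animal with another recorded genotype. The recorded age ran from 55 to 447, with no unit given, and 7 libraries (of VPMpc, AV and LD) came from animals at 441 or above while no other recorded age was above 182. PVT, IMD, CL, PF, SPA and AM came from females only, and males alone gave the libraries of VB, PO, MD, LP, LGd and the 3 retrosplenial-labelled nuclei. In what follows CM means its AAV libraries and AM its DiI libraries unless stated.

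Protocadherins are cell surface proteins of the cadherin superfamily that bind, mostly weakly, to the same protein on a neighbouring cell. The delta group is encoded by separate genes outside the clustered protocadherin loci and is divided into delta-1 members (Pcdh1, Pcdh7 and Pcdh9 here, with Pcdh11x) and delta-2 members (Pcdh10, Pcdh17 and Pcdh19 here, with Pcdh8 and Pcdh18). Delta-1 proteins have a longer extracellular part and a cytoplasmic motif that binds protein phosphatase 1. Delta-2 proteins such as Pcdh10, Pcdh17 and Pcdh19 recruit the WAVE actin-regulating complex. In the developing brain the members mark different subsets of nuclei, layers and tracts, and they act in axon outgrowth, sorting and synapse formation.

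The upstream sequences are shown for Pcdh7, Pcdh10 and Pcdh17, because Pcdh7 and Pcdh17 were each at or near 0 in 1 nucleus (AD and LGd) and Pcdh10 was called in the most pairs of nuclei. They are from RefSeq, build GRCm38.p6, plus strand, 5′ to 3′. Each ends at the base before the GENCODE gene start, and each CpG is in capitals. That of Pcdh7 is chr5:57717831-57717966, that of Pcdh10 is chr3:45378148-45378397 and that of Pcdh17 is chr14:84443313-84443562.
Pcdh7: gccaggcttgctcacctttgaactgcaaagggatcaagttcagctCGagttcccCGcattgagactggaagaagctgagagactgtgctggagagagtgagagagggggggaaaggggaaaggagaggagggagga
Pcdh10: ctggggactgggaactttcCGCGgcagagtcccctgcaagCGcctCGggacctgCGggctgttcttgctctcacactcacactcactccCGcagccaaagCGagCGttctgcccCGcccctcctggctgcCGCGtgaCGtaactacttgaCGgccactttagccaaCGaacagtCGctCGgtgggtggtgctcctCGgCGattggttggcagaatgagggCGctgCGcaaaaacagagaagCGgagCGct
Pcdh17: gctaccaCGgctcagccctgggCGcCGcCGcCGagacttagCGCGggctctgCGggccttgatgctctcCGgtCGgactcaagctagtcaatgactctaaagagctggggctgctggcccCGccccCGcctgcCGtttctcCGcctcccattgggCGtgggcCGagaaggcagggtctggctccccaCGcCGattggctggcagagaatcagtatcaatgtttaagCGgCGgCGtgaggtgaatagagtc

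In the 250 bases before the RefSeq start, Pcdh17 had 21 CpGs and Pcdh10 had 22, where the median of 32851 mouse promoters of that length was 6. At these counts 83.7% and 85.2% of the promoters had fewer. Pcdh9 had 18 and Pcdh19 had 16, while Pcdh7 had 7, near the median. The TATA motif TATAAA, searched on both strands, was in none of the 5 members with an entry, against 12.4% of the promoters. CTTTGA, the core motif of the Tcf/Lef factors, of which Tcf7l2 marks thalamic neurons, was found on either strand in 13.8% of the promoters. Among the 5 it was found in Pcdh7 alone. A match to these letters is a description and not a binding site.

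The libraries held 8159497 to 26444831 counts each, with a median of 15571300. The summed level of Slc17a6 and Tcf7l2, which mark thalamic projection neurons, was 1779 to 7256 CPM, a gene's count scaled by the size of its library. Oligodendrocyte markers (7 of 8 in the table) summed to a median of 21 CPM and exceeded 100 CPM in 21 libraries, up to 3345 CPM in VA replicate 3. The microglial marker Csf1r was at 47.9 CPM at most and the habenular marker Gpr151 at 60.2 CPM at most, each being 1 of 5 listed genes. The other markers listed for microglia and habenula had no entry in the count table. Nor had any of those listed for astrocytes, oligodendrocyte precursors, vessels and inhibitory neurons, so RNA of these cells could not be assessed by them. In pooled cells, fewer cells with a transcript and less of it per cell cannot be told apart. The recorded animals of the libraries within a group differed in every group, with 13 libraries pooled from several animals (4 of 5 in LGd and 3 of 4 in VB). Of the 85 animals, 44 gave more than 1 library, so libraries of different nuclei can share an animal.

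All 6 members differed among the 22 nuclei by edgeR's quasi-likelihood F test with Benjamini-Hochberg adjustment over all genes, in which 55.1% of the 16527 tested genes were also called at an adjusted p under 0.05. Their F statistics ranked 21 for Pcdh9 (adjusted p = 1.0e-36), 34 for Pcdh7 (8.9e-33), 52 for Pcdh10 (1.9e-31), 128 for Pcdh17 (4.2e-26), 600 for Pcdh19 (3.3e-15) and 2166 for Pcdh1 (2.5e-07). The share of the variance of log2 CPM (prior count 2) that lay between nuclei was 93.1% for Pcdh7, 89.7% for Pcdh10, 89.5% for Pcdh17, 89.0% for Pcdh9, 70.2% for Pcdh19 and 52.7% for Pcdh1, where the median over all tested genes was 28.4%. The members were highest in 6 different nuclei. Pcdh1 peaked in VM, Pcdh7 in VB, Pcdh9 in AV, Pcdh10 in MD, Pcdh17 in PVT and Pcdh19 in RE. Neighbours in the order of the levels mostly overlapped: of 21 neighbouring pairs of nuclei per gene, the library ranges were apart in 2 for Pcdh7, in 1 for Pcdh17 and in 0 for the other 4 members. Neighbours are ordered by these same means and so lie close by construction. The count was not made over all genes, so it does not set the members apart from other genes.

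**Figure D1:**
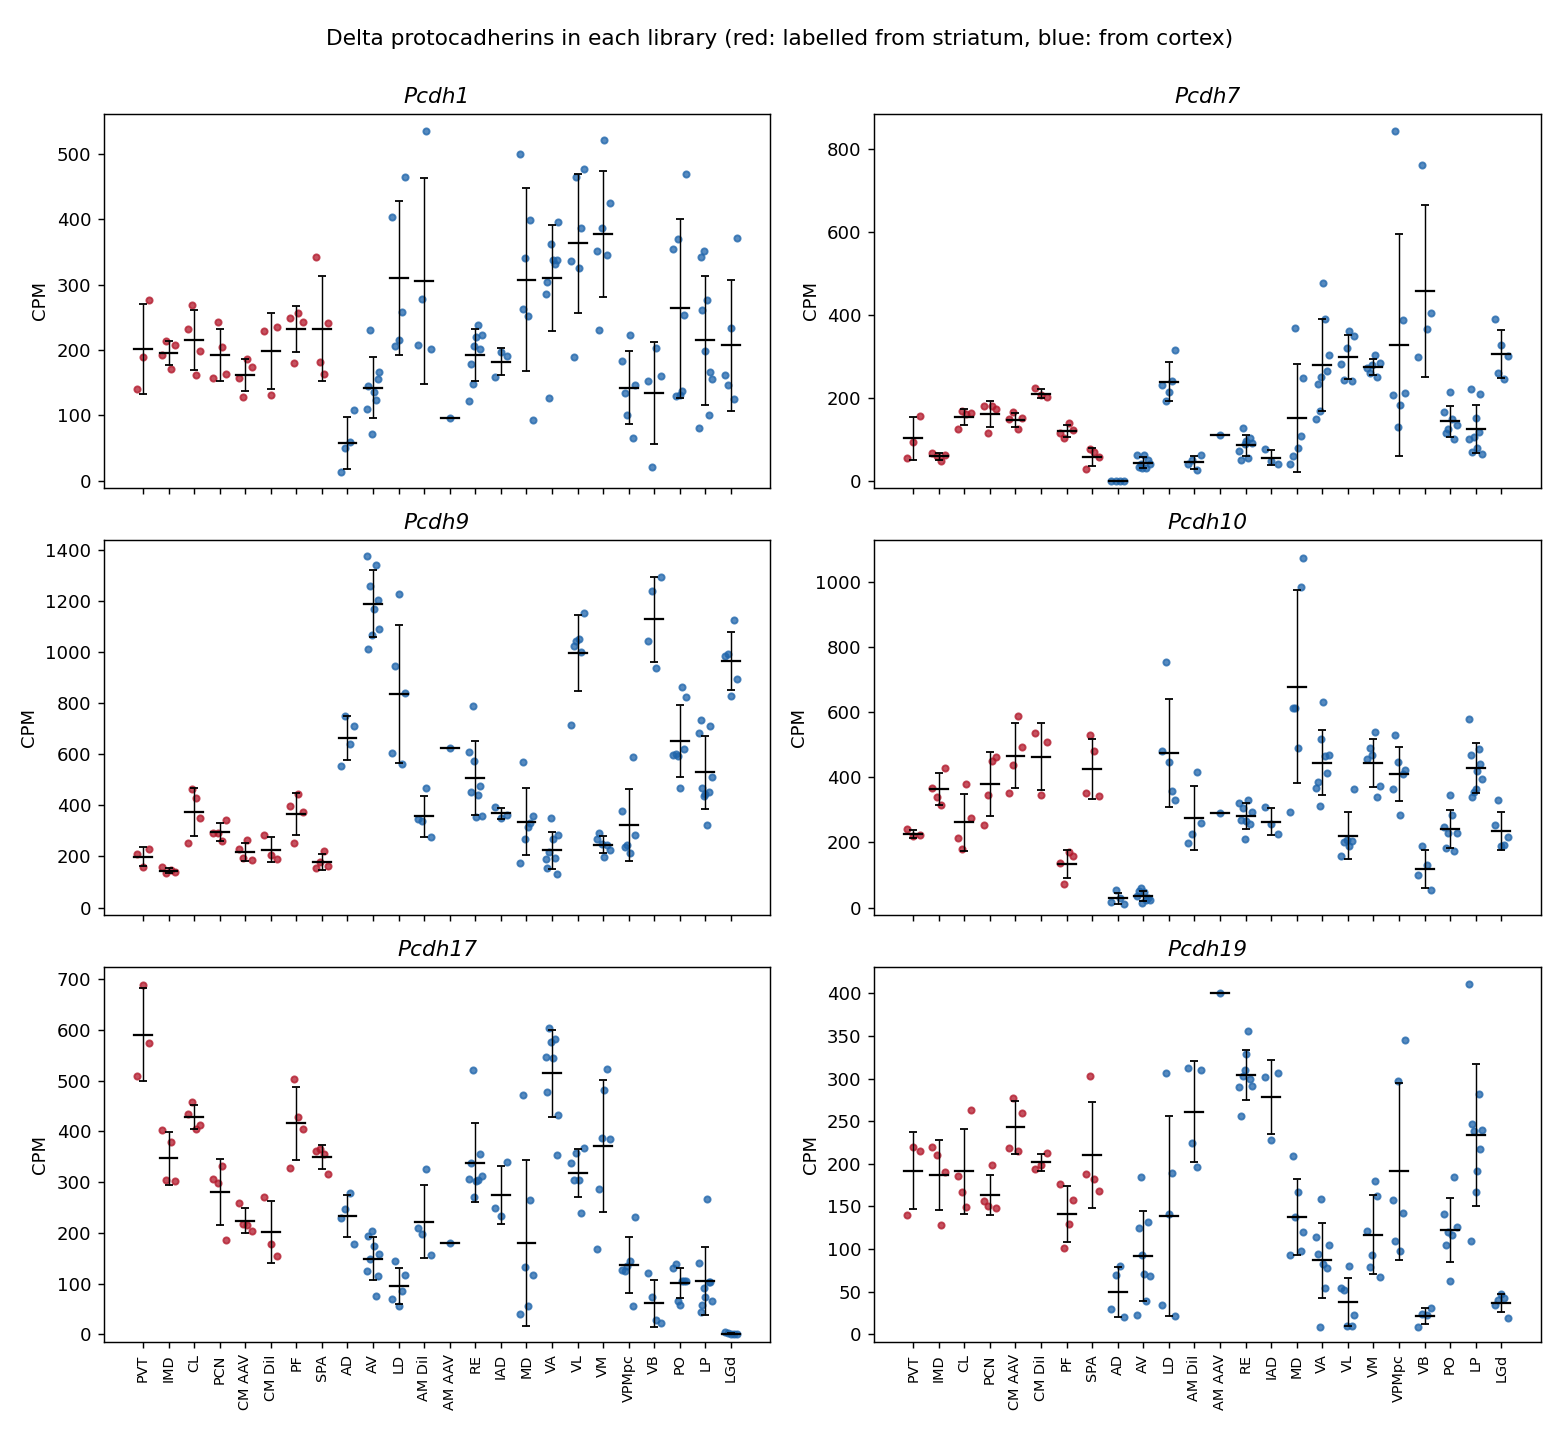
CPM of each member (vertical axes) in the 24 groups of nucleus and tracer (horizontal axes), with 1 point per library, horizontal bars for the group mean and error bars for the SD. Pcdh7 lies near 0 in AD, Pcdh17 in LGd, and Pcdh9 is high in AV, VB, VL and LGd.

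Pcdh1, a delta-1 member also known from epithelia, was the most even of the 6. It is encoded on chromosome 18 (mm10, bases 38185914 to 38212053, minus strand). Its highest means were 377 ± 96.3 CPM (SD, n = 6) in VM, 363 ± 106 (n = 6) in VL, 310.5 ± 81.7 (n = 8) in VA, 309.9 ± 118 (n = 5) in LD, 308 ± 139.9 (n = 6) in MD and 306 ± 157 (n = 4) in AM. PO followed with 264 ± 138 CPM (n = 7). A long middle stretch held SPA at 233 ± 80.7 CPM (n = 4), PF at 233 ± 35 (n = 4), CL at 215 ± 45.7 (n = 4), LP at 215 ± 99.0 (n = 9), LGd at 207 ± 100.1 (n = 5), PVT at 202 ± 69.0 (n = 3), IMD at 196 ± 18.7 (n = 4), PCN at 192 ± 39.9 (n = 4), RE at 192 ± 40.0 (n = 8), IAD at 183 ± 21.1 (n = 3) and CM at 161 ± 24.7 (n = 4). Neighbours in this stretch overlapped. Below them stood VPMpc with 142 ± 56.3 CPM (n = 6), AV with 142 ± 46.3 (n = 8) and VB with 134 ± 78.4 (n = 4). AD was lowest with 57.8 ± 39.3 CPM (n = 4), and its 4 libraries were at 12.8, 50.2, 59.9 and 108 CPM. In VA, the library with 3345 CPM of oligodendrocyte markers had 126 CPM of Pcdh1, and the next lowest of the 8 had 286.

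Pcdh7, a delta-1 member that can bind the nuclear protein Set, had the widest span. Its gene covers 415 kb of chromosome 5 (57717967 to 58133230, plus strand). It was highest in the ventral and sensory relay nuclei, with 457 ± 207 CPM in VB (SD, n = 4), 327 ± 267 in VPMpc (n = 6), 305 ± 57.7 in LGd (n = 5), 299 ± 52.9 in VL (n = 6), 279 ± 109.8 in VA (n = 8) and 274 ± 19.0 in VM (n = 6). LD reached 239 ± 47.0 CPM (n = 5), and every LD library was above every PCN library, the next nucleus in the order. The middle held PCN at 161 ± 31.9 CPM (n = 4), CL at 154 ± 19.5 (n = 4), MD at 151 ± 130.1 (n = 6), CM at 147 ± 17.1 (n = 4), PO at 143 ± 37.9 (n = 7), LP at 124 ± 58.2 (n = 9), PF at 120.2 ± 14.6 (n = 4) and PVT at 102 ± 50.8 (n = 3). Low levels were found in RE with 85.5 ± 25.8 CPM (n = 8), IMD with 58.6 ± 8.59 (n = 4), SPA with 57.2 ± 20.6 (n = 4), IAD with 55.5 ± 18.6 (n = 3), AM with 44.4 ± 15.3 (n = 4) and AV with 43.6 ± 12.9 (n = 8). AD stood apart from all of them. Its 4 libraries held 4, 0, 1 and 3 reads of Pcdh7, 8 among 45975348 counts, or 0.209 ± 0.224 CPM. The VB libraries were at 298, 366, 405 and 761 CPM. In VPMpc the values ran from 129 to 842 CPM with a median of 209, and the highest was replicate 2, 1 of 2 VPMpc libraries from animals with a recorded age of 441 or above. Exons of Pcdh7 share 2235 bases with 4932441J04Rik on the other strand, and without strand marking their reads cannot be told apart there.

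Pcdh9, a delta-1 member found in many neurons and in oligodendrocytes, was the most abundant of the 6 per exon length. Its gene covers 877 kb of chromosome 14 (93013410 to 93890679, minus strand). Its 9 highest nuclei were all labelled from cortex, led by AV with 1189.7 ± 131 CPM (SD, n = 8), VB with 1129.5 ± 166 (n = 4), VL with 997 ± 148 (n = 6), LGd with 966 ± 113 (n = 5) and LD with 836 ± 271 (n = 5). AD with 663 ± 86.8 CPM (n = 4), PO with 653 ± 140.3 (n = 7), LP with 529 ± 144 (n = 9) and RE with 507 ± 146 (n = 8) came next. From CL downward the steps were small, with 375 ± 93.5 CPM in CL (n = 4), 368 ± 21.4 in IAD (n = 3), 367 ± 81.0 in PF (n = 4), 357 ± 79.5 in AM (n = 4), 336 ± 131 in MD (n = 6), 324 ± 142 in VPMpc (n = 6) and 296 ± 33.9 in PCN (n = 4). The lowest 6 were VM at 246 ± 32.6 CPM (n = 6), VA at 224 ± 73.4 (n = 8), CM at 218 ± 35.2 (n = 4), PVT at 199 ± 37.3 (n = 3), SPA at 179 ± 30.3 (n = 4) and IMD at 144 ± 10.0 (n = 4). No library was below 131 CPM, so Pcdh9 was present throughout. The 4 IMD libraries, between 135 and 158 CPM, were below each library of AV, the lowest of which had 1013 CPM.

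Pcdh10, a delta-2 member that links synaptic Dlg4 (PSD-95) to the proteasome downstream of Mef2 factors, was highest in MD. Its gene lies on chromosome 3 (45378398 to 45435623, plus strand). MD had 679 ± 297 CPM (SD, n = 6), with libraries from 295 to 1076 CPM. A broad group followed, with LD at 475 ± 167 CPM (n = 5), CM at 467 ± 99.4 (n = 4), VA at 445 ± 99.5 (n = 8), VM at 445 ± 74.5 (n = 6), LP at 428 ± 76.6 (n = 9), SPA at 426 ± 92.8 (n = 4), VPMpc at 409.6 ± 82.5 (n = 6), PCN at 378 ± 98.4 (n = 4) and IMD at 364 ± 49.3 (n = 4). Neighbours in this group overlapped. RE with 282 ± 39.5 CPM (n = 8), AM with 275 ± 98.6 (n = 4), IAD with 264 ± 41.9 (n = 3), CL with 262 ± 87.8 (n = 4), PO with 241 ± 59.0 (n = 7), LGd with 237 ± 58.6 (n = 5), PVT with 227 ± 12.4 (n = 3) and VL with 221 ± 72.3 (n = 6) were lower. PF had 135 ± 43.6 CPM (n = 4) and VB 119 ± 57.1 (n = 4). AV and AD were far below, with 35.5 ± 16.1 CPM (n = 8) and 27.7 ± 18.1 (n = 4). The 4 AD libraries were at 11.9, 17.4, 28.9 and 52.7 CPM and the AV libraries between 13.5 and 59.7 CPM, so these 2 nuclei overlapped. Pcdh10 shares 154 exon bases with the antisense gene 1700027H10Rik.

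Pcdh17, a delta-2 member known from axon growth and from synapses of the cortico-basal ganglia circuit, was highest in PVT and nearly absent from LGd. Its gene lies on chromosome 14 (84443563 to 84539002, plus strand). The highest levels were 591 ± 91.3 CPM in PVT (SD, n = 3), 515 ± 86.4 in VA (n = 8), 428 ± 23.8 in CL (n = 4) and 416 ± 72.7 in PF (n = 4). VM had 372 ± 130.4 CPM (n = 6), SPA 349 ± 23.2 (n = 4), IMD 347 ± 51.8 (n = 4), RE 339 ± 77.7 (n = 8) and VL 318 ± 46.8 (n = 6), which overlapped. PCN with 281 ± 65.2 CPM (n = 4), IAD with 274 ± 57.3 (n = 3), AD with 234 ± 41.8 (n = 4), CM with 224 ± 24.6 (n = 4), AM with 222 ± 72.1 (n = 4) and MD with 180.5 ± 164 (n = 6) formed the middle. AV with 149 ± 43.0 CPM (n = 8), VPMpc with 136 ± 56.0 (n = 6), LP with 105 ± 67.4 (n = 9), PO with 101 ± 29.9 (n = 7), LD with 94.7 ± 35.9 (n = 5) and VB with 60.7 ± 45.9 (n = 4) were low. In LGd the 5 libraries held 49, 20, 0, 0 and 14 reads, or 4.17, 1.70, 0, 0 and 0.813 CPM, a mean of 1.34 ± 1.73. The range of LGd lay below that of VB, the next nucleus up, whose libraries were at 21.5, 28.0, 73.2 and 120.2 CPM. The step from LGd to VB was 45.0-fold in summed reads (95% interval 36.2 to 56.6, for counting error only).

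Pcdh19, a delta-2 member that acts together with the classical cadherin Cdh2 and is encoded on the X chromosome (133582860 to 133688987, minus strand), was highest in the cingulate-projecting nuclei. RE had 304 ± 29.3 CPM (SD, n = 8), IAD 279 ± 43.7 (n = 3) and AM 261 ± 59.5 (n = 4), and the single AM library labelled with AAV had 401. CM with 243 ± 30.9 CPM (n = 4), LP with 234 ± 83.4 (n = 9), SPA with 211 ± 62.3 (n = 4), PVT with 192 ± 45.2 (n = 3), VPMpc with 192 ± 104 (n = 6), CL with 191 ± 49.8 (n = 4), IMD with 187 ± 41.2 (n = 4) and PCN with 163 ± 23.7 (n = 4) came next. PF had 141 ± 32.7 CPM (n = 4), LD 139 ± 118 (n = 5), MD 138 ± 44.5 (n = 6), PO 122 ± 37.1 (n = 7), VM 117 ± 45.9 (n = 6), AV 92.0 ± 53.1 (n = 8) and VA 87.0 ± 44.1 (n = 8). The lowest 4 were AD with 49.9 ± 29.3 CPM (n = 4), VL with 38.0 ± 28.6 (n = 6), LGd with 36.7 ± 11 (n = 5) and VB with 21.4 ± 9.13 (n = 4). The VB libraries were at 8.78, 22.7, 23.8 and 30.5 CPM and the LGd libraries at 19.0, 34.4, 40.2, 42.4 and 47.5 CPM, which overlap. Each library of RE, the lowest of which had 256 CPM, was above them. In the nuclei with at least 2 libraries of each sex, Pcdh19 overlapped between the sexes in each nucleus, and RE had 256 to 356 CPM in 5 female and 292 to 329 CPM in 3 male libraries. In the fit with recorded sex as a term, 0 of the 6 members were called between males and females by edgeR (0 at an unadjusted p under 0.05), where 0.0303% of all genes were, and DESeq2 was not run with that term. Over the 5 nuclei and 6 members the ranges of the sexes were apart in 5 of 30 sets, of 2 against 2 libraries in all but 1. Ranges of 2 against 2 libraries can be apart without any difference between the sexes. How often they are apart over all genes was not analysed here. Pcdh10 was 494 to 587 CPM in female and 351 to 437 in male CM libraries, and 452 to 462 against 253 to 346 in PCN. The log2 difference, male minus female, was -0.06 ± 0.21 (SE) for Pcdh19.

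Per kilobase of exon, Pcdh9 led the 6 members in 17 of 22 nuclei, Pcdh17 in 4 (PVT, IMD, SPA and VA) and Pcdh1 in 1 (VM). The mean over nuclei was 74.4 CPM per kb for Pcdh9, 25.5 for Pcdh1, 20.1 for Pcdh17, 19.6 for Pcdh10, 15.5 for Pcdh7 and 14.9 for Pcdh19. The makeup was most one-sided in AV, where Pcdh9 took 80.4% of the summed CPM per kb, in AD (75.9%), in VB (69.6%) and in LGd (66.8%). The leader's share was smallest in SPA and IMD, where Pcdh17 took 20.4% and 22.9% and Pcdh7, the least, took 4.08% and 4.74%. The least member's share was largest in PCN and CM, where Pcdh7 took 10.7% and 10.3%. The sum over the 6 ran from 117 CPM per kb in IMD to 258 in VL. The 5 nuclei with the largest sums (LGd, AV, LD, VB and VL) are also the 5 with the most Pcdh9. These shares rest on exon lengths of all annotated transcripts together, and the transcripts used in each nucleus were not analysed here.

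**Figure D2:**
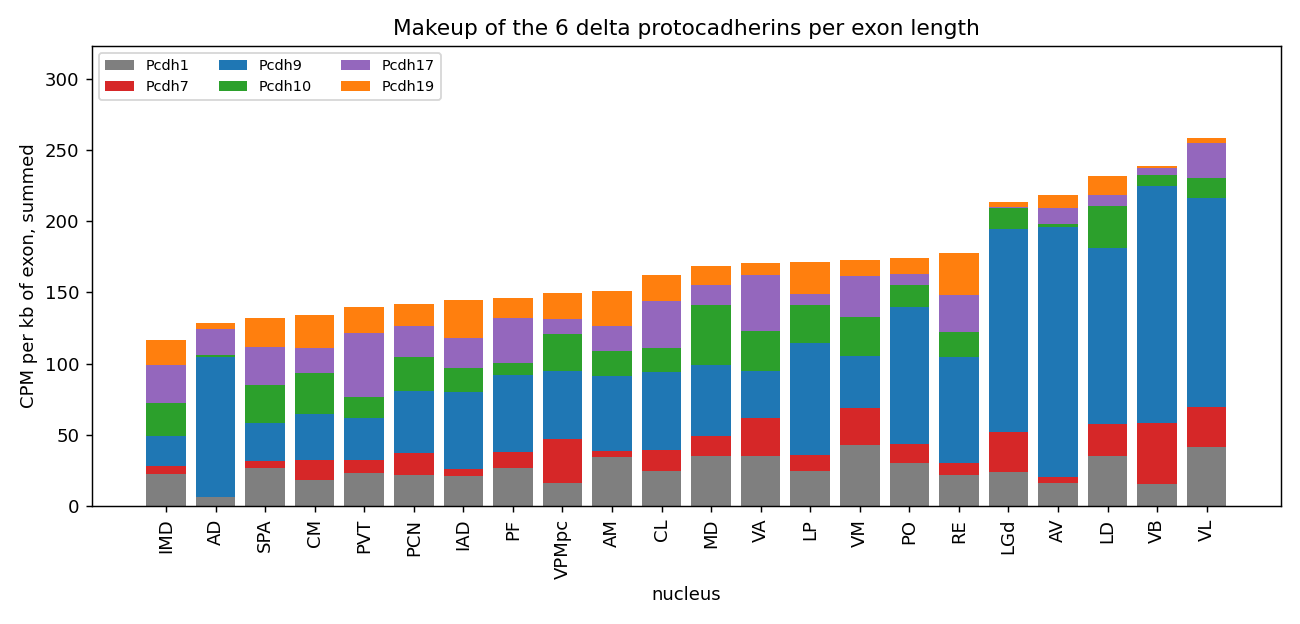
Mean CPM per kb of exon (vertical axis), stacked by member, for the 22 nuclei in order of the sum (horizontal axis). Pcdh9 is the largest block in 17 nuclei and rises to 80.4% of the sum in AV, while in SPA the leading member Pcdh17 has 20.4%.

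In visual thalamus, 5 of the 6 members differed between LP, a higher-order nucleus, and LGd, the retinal relay. By edgeR's quasi-likelihood test 3.62% of all genes were called there. The delta-2 members were higher in LP and the delta-1 members Pcdh7 and Pcdh9 lower. Pcdh17 had 43.8 CPM in the lowest LP library, a median of 90.5 and 267 in the highest, against 4.17 at most in LGd, a log2 difference of 6.28 ± 0.50 (SE, adjusted p = 4.1e-19). In summed reads LP was 77.7-fold above LGd (95% interval 62.6 to 97.6, for counting error only). Pcdh19 was 109.8 to 411 CPM in LP and 19.0 to 47.5 in LGd, a log2 difference of 2.67 ± 0.43 (adjusted p = 2.1e-06). For both genes each LP library was above each LGd library. Pcdh7 ranged from 63.2 to 221 CPM over the 9 LP libraries and was 246, 259.7, 300.3, 327 and 390.2 in LGd, a log2 difference of -1.30 ± 0.30 (adjusted p = 0.0025). Pcdh9 differed by -0.87 ± 0.19 (adjusted p = 0.0011), again with ranges that did not overlap. These 4 kept their calls under all 13 alternatives. Pcdh10 was higher in LP by 0.85 ± 0.25 (adjusted p = 0.030), but missed the threshold without LGd replicate 1, 3, 4 or 5 (adjusted p = 0.056, 0.11, 0.11 and 0.084) and with the amplification date as a term (0.074). Pcdh1 had 215 ± 99.0 CPM in LP and 207 ± 100.1 in LGd and was not called (log2 difference 0.05 ± 0.32).

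In somatosensory thalamus, PO against VB gave the same direction for the 4 members called, where 2.65% of all genes were called. Pcdh19 was 62.2 to 185 CPM in PO and 8.78 to 30.5 in VB, a log2 difference of 2.51 ± 0.47 (SE, adjusted p = 1.4e-04, edgeR). Pcdh7 was 99.4 to 213 CPM in PO and 298 to 761 in VB, a difference of -1.68 ± 0.34 (adjusted p = 4.3e-04). Neither pair of ranges overlapped, and both calls held under all 12 alternatives. Pcdh9 was lower in PO, with a log2 difference of -0.79 ± 0.21 and 653 ± 140.3 CPM (SD, n = 7) against 1129.5 ± 166 in VB (n = 4) (adjusted p = 0.018). This call was lost without VB replicate 2 (adjusted p = 0.071) or 4 (0.089), with the date as a term (0.38) and within the dates that hold both nuclei (0.44). Pcdh10 was higher in PO by 1.02 ± 0.28 (adjusted p = 0.024), with ranges that overlapped, and lost its call without VB replicate 1, 3 or 4 (0.098, 0.054 and 0.21), with the date as a term (0.15), within shared dates (0.46) and in a fit of the 2 nuclei alone (0.088). Oligodendrocyte markers summed to 61.7, 149, 617 and 1671 CPM in VB replicates 1 to 4 and to a median of 5.46 CPM in PO (0.141 to 210). Pcdh9 in the same VB libraries was 1044, 1240.0, 939 and 1295 CPM. The part of these cells in the Pcdh9 difference was not tested. Pcdh17 had 101 ± 29.9 CPM in PO and 60.7 ± 45.9 in VB and was not called (0.73 ± 0.41, adjusted p = 0.40), nor was Pcdh1 (0.97 ± 0.37, adjusted p = 0.16).

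The LP-LGd difference minus the PO-VB difference was called for 1 member, Pcdh17, at 5.54 ± 0.58 on the log2 scale (SE, adjusted p = 6.8e-12, edgeR), where 0.2% of all genes were called. The other 5 interaction estimates were 0.38 ± 0.46 for Pcdh7, 0.16 ± 0.56 for Pcdh19, -0.08 ± 0.29 for Pcdh9, -0.17 ± 0.37 for Pcdh10 and -0.92 ± 0.48 for Pcdh1, none called. A p that misses the threshold does not show that the 2 pairs are alike. All libraries of these 4 nuclei came from males.

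In motor thalamus, VL differed from VM and VA mainly in Pcdh9. It was 714 CPM in the lowest VL library, with the other 5 at 999, 1026, 1042, 1051 and 1152. VM ran from 198 to 293 CPM and VA from 131 to 352. Every VL library was thus above every VM and VA library. The log2 difference was -2.02 ± 0.21 (SE) for VM minus VL (adjusted p = 9.9e-13, edgeR) and -2.15 ± 0.19 for VA minus VL (1.3e-16), and both held under all 9 alternatives each. These left out no library of VM or VL, and of VA only replicate 6, since leave-outs were run in groups of up to 5 libraries. Across genes 1.69% were called between VM and VL, 2.21% between VA and VL and 0.127% between VA and VM. Pcdh10 was 445 ± 74.5 CPM in VM (SD, n = 6), 445 ± 99.5 in VA (n = 8) and 221 ± 72.3 in VL (n = 6), with log2 differences from VL of 1.01 ± 0.25 (adjusted p = 0.012) and 1.01 ± 0.24 (0.0059). The call for VM was lost with the date as a term (0.11), within shared dates (0.083) and with the animal as a block (0.19), where 3 animals gave libraries to both nuclei. Pcdh19 was higher in VM than in VL by 1.62 ± 0.40 (adjusted p = 0.0097) but lost its call in a fit of the 2 nuclei alone (0.0503), with sex as a term (0.0501) and within shared dates (0.095). For VA minus VL it was 1.20 ± 0.37 (0.064), and DESeq2 called it (0.027). Between VA and VM 0 of 6 members were called by edgeR, with 0 at an unadjusted p under 0.05 and 0 called by DESeq2, and their log2 differences lay between -0.43 and 0.47. DESeq2 called 319 of 16527 genes between VA and VM. The comparisons with VL share its libraries. Oligodendrocyte markers summed to a median of 91.6 CPM in VA (3.34 to 3345), 22.9 in VM (3.20 to 414) and 6.99 in VL (1.49 to 192), and their part in these differences was not tested.

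Among the retrosplenial-projecting nuclei, AD, a head direction nucleus, held almost no Pcdh7 and less Pcdh1 and Pcdh9 than AV, and LD held far more Pcdh7 and Pcdh10 than either. By edgeR 5.69% of genes were called between AD and AV, 5.5% between LD and AV and 6.73% between AD and LD, which share libraries, and all 3 nuclei came from males. Pcdh7 was at most 0.507 CPM in AD, 30.1 to 62.1 in AV and 191 to 316 in LD, so the 3 nuclei did not overlap. The fitted log2 differences were -7.81 ± 0.57 for AD minus AV (SE, adjusted p = 7.4e-22), -10.26 ± 0.62 for AD minus LD (6.0e-28) and 2.45 ± 0.31 for LD minus AV (1.3e-09). Since AD held 8 reads in all, the size is also given by the ratio of summed reads, 236-fold for AV over AD (95% interval 119.6 to 547) and 1311-fold for LD over AD (665 to 3037), where the intervals cover counting error only and not the spread between libraries. Pcdh10 separated LD (332 to 753 CPM) from AV and AD, with log2 differences of 3.74 ± 0.26 for LD minus AV (adjusted p = 1.2e-23) and -4.10 ± 0.34 for AD minus LD (1.2e-18). Between AD and AV it was not called (-0.36 ± 0.27). These calls held under each of the 14 to 17 alternatives run. Pcdh1 had 309.9 ± 118 CPM in LD (SD, n = 5) and 57.8 ± 39.3 in AD (n = 4), and AD minus LD was -2.42 ± 0.42 (5.5e-06), also kept throughout. AD and LD shared no amplification date and no animal, so the fits within shared dates and with the animal as a block could not be run for this pair.

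Other calls in the same 3 nuclei missed the threshold under some alternatives, in all of which the direction was kept. Pcdh1 was lower in AD than in AV, with a log2 difference of -1.30 ± 0.37 (SE, adjusted p = 0.018, edgeR) and lost the call without AD replicate 1, 2 or 3 (0.19, 0.068 and 0.051), in a fit of the 2 nuclei alone (0.11) and within shared dates (0.26). It was higher in LD than in AV by 1.12 ± 0.32 (0.021) and lost that call without LD replicate 1 (0.076) or 5 (0.093), with the date as a term (0.47), within shared dates (0.12), with the animal as a block (0.21) and without the animals recorded as older than 400 (0.14). Pcdh9 was lower in AD than in AV (-0.84 ± 0.22, 0.0070), with ranges of 553 to 752 and 1013 to 1376 CPM that did not overlap. That call missed the threshold without AD replicate 1 (0.052) and with the animal as a block (0.076). LD minus AV for Pcdh9 was -0.51 ± 0.20 (0.11), and was called by DESeq2 (0.035) and without LD replicate 3 (0.044). Pcdh17 was higher in AD than in LD by 1.30 ± 0.42 (0.042) and Pcdh19 lower (-1.47 ± 0.47, 0.036). Pcdh17 lost its call without AD replicate 1, 2 or 3 (0.075, 0.077 and 0.11), without LD replicate 1, 3 or 4 (0.10, 0.11 and 0.072), with the date as a term (0.86) and without the older animals (0.077). Pcdh19 lost its call without AD replicate 1 or 4 (0.14 and 0.15), without LD replicate 2, 3 or 4 (0.23, 0.052 and 0.075), with the date as a term (0.49) and in a fit of the 2 nuclei alone (0.36).

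The cingulate-projecting nuclei AM, RE and IAD had 0 of 6 members called in any of the 3 pairs by edgeR or DESeq2. Of all genes edgeR called 1.84% between AM and RE, 1.33% between RE and IAD and 0.0% between AM and IAD. DESeq2 called 542, 550 and 240 of 16527 genes in these 3 pairs. At an unadjusted p under 0.05 there were 2 members (Pcdh7 and Pcdh9) for AM and RE, 0 for RE and IAD and 0 for AM and IAD. Pcdh9 was 357 ± 79.5 CPM in AM (SD, n = 4) and 507 ± 146 in RE (n = 8), a log2 difference of -0.50 ± 0.22 (SE, adjusted p = 0.35). The 4 AM animals also gave RE libraries, and with the animal as a block the difference was -0.76 ± 0.19 (adjusted p = 0.048), a call. RE and IAD shared 3 animals. Pcdh7 was 44.4 ± 15.3 CPM in AM and 85.5 ± 25.8 in RE (-0.95 ± 0.35, adjusted p = 0.21). The single AAV library of AM had 626 CPM of Pcdh9 and 110.9 of Pcdh7, both above the 4 DiI libraries of AM, which reached 467 and 62.0 CPM.

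Over the 11 pairs, 25 of 66 tests of a member were called, where 2.85% of all gene tests were, with 6 of 11 for Pcdh10, 5 each for Pcdh7 and Pcdh9, 4 for Pcdh19, 3 for Pcdh1 and 2 for Pcdh17. The members were chosen with earlier results of these data known, so the 2 shares are a description and not a test of the family. Of the 25, 15 held under every alternative run for their pair and 10 were lost under at least 1, and none changed direction.

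**Figure D3:**
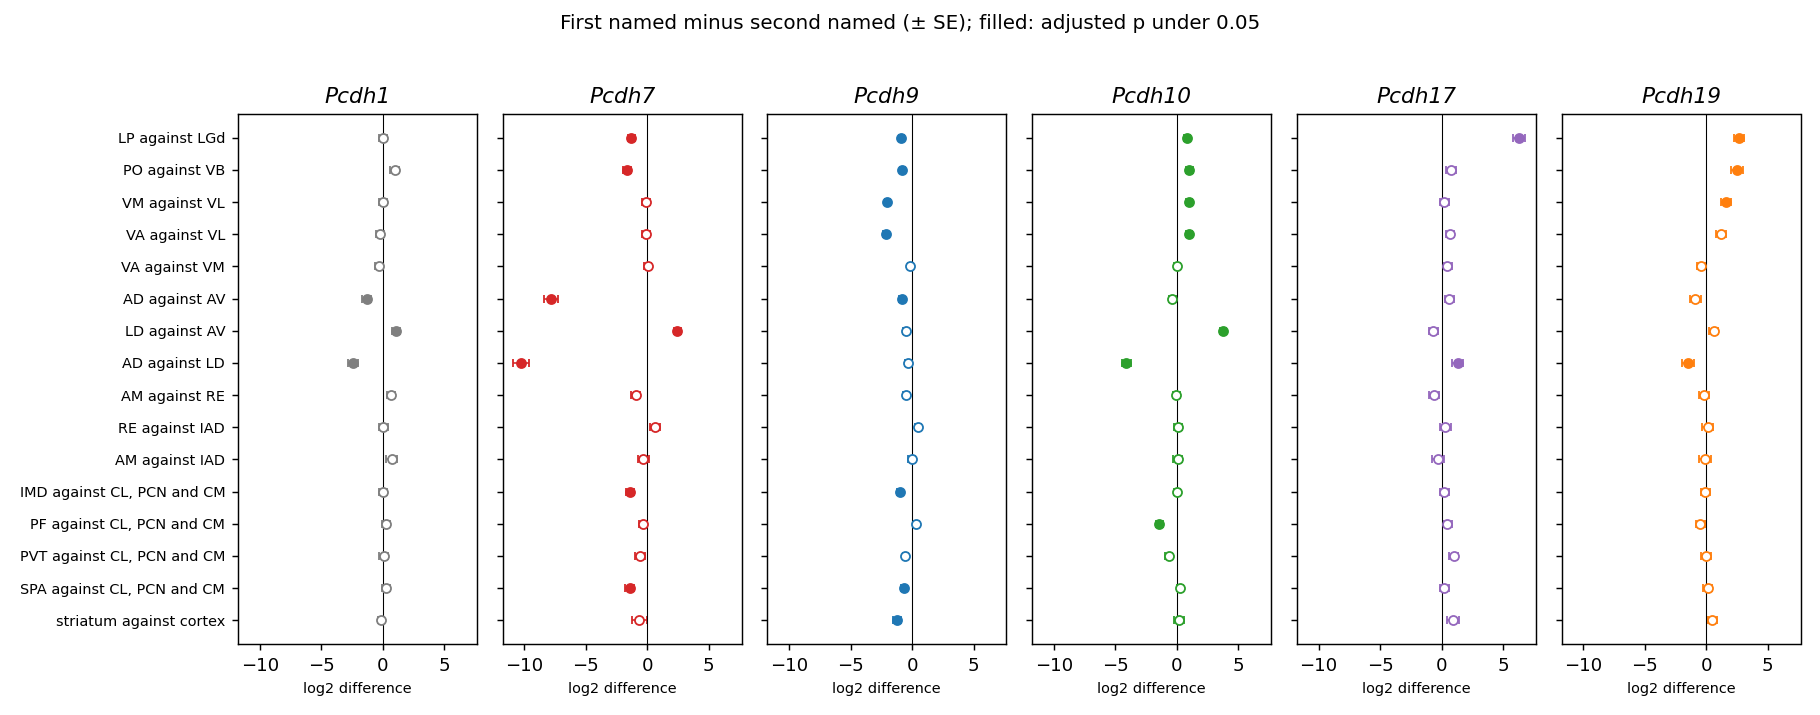
Log2 difference with its SE (horizontal axes) for each member in 16 comparisons (vertical axis), the first named group minus the second, with filled points for an adjusted p under 0.05. Pcdh7 reaches -10.26 for AD against LD, Pcdh17 6.28 for LP against LGd, and the points of AM, RE and IAD are all open.

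Within the striatum-projecting nuclei, PVT, IMD, PF and SPA were each set against the mean of the intralaminar groups CL, PCN and CM, whose 12 libraries they share. In IMD, where 2.75% of genes were called by edgeR, Pcdh7 was 46.4, 59.0, 62.9 and 66.0 CPM against 154 ± 22.3 (SD, n = 12), a log2 difference of -1.39 ± 0.35 (SE, adjusted p = 0.0099). Pcdh9 was 144 ± 10.0 CPM against 296 ± 86.8, a difference of -1.0 ± 0.21 (0.0016). In SPA, where 3.44% of genes were called, Pcdh7 was 28.4, 57.1, 68.0 and 75.4 CPM, a difference of -1.43 ± 0.35 (0.0073). For Pcdh7 neither IMD nor SPA overlapped the intralaminar libraries (113.8 to 181 CPM). Pcdh9 in SPA was 179 ± 30.3 CPM, a difference of -0.69 ± 0.21 (0.041). The Pcdh7 call in IMD was lost without IMD replicate 3 (-1.30, adjusted p = 0.0695) and that in SPA without SPA replicate 1 (-1.20, 0.0802). The SPA call for Pcdh9 was lost without any of 9 libraries of SPA, CL, PCN or CM (adjusted p = 0.051 to 0.18).

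In PF, where 0.0605% of genes were called, Pcdh10 was the member called, with 72.4, 138, 159 and 169.8 CPM against 369 ± 123 in the intralaminar groups (SD, n = 12), a log2 difference of -1.41 ± 0.27 (SE, adjusted p = 0.0030, edgeR). Each PF library was below each intralaminar library, and the call was lost without PF replicate 2 (-1.21, adjusted p = 0.14). In PVT, where 2.18% of genes were called by edgeR and 1149 of 16527 by DESeq2, 0 of 6 members were called by either. Of the members, 3 (Pcdh9, Pcdh10 and Pcdh17) had an unadjusted p under 0.05 by edgeR. Pcdh17 was 509.5, 573 and 689.6 CPM in PVT, above each intralaminar library (at most 458), with a difference of 0.98 ± 0.38 (adjusted p = 0.19). A fit of these groups alone called it (0.96, adjusted p = 2.5e-04). Over the 4 comparisons 5 of 24 tests of a member were called, where 2.11% of all gene tests were. These shares too are a description, since the members were chosen with earlier results known.

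The 7 striatum-labelled nuclei were compared with the 15 cortex-labelled ones on counts summed per nucleus, where 18.4% of genes were called by edgeR. Pcdh9 was the member called, with 262 ± 94.6 CPM (SD over 7 nuclei) against 618 ± 336 (15 nuclei), a log2 difference of -1.24 ± 0.33 (SE, adjusted p = 0.011). The striatum-labelled nuclei ran from 152 to 383 CPM and the cortex-labelled from 216 to 1165 CPM, so the ranges overlapped. Class goes with tracer and in part with sex. PVT, IMD, CL, PF and SPA came from females only, and VB, PO, MD, LP, LGd, AD, AV and LD from males only. The 2 amplification dates that held both classes had 10 striatum-labelled and 16 cortex-labelled libraries. These were summed per group and date to 8 sums, with groups of either tracer allowed. Within those dates, where 5.95% of genes were called, Pcdh9 differed by -1.42 ± 0.63 (adjusted p = 0.23), not a call, while Pcdh7 (-1.05 ± 0.25, 0.038) and Pcdh19 (1.46 ± 0.36, 0.042) were called and Pcdh17 was at -0.33 ± 0.30 (0.60), the opposite direction to that over all nuclei. A fit of single libraries, in which libraries and not nuclei are the replicates, called Pcdh9, Pcdh10, Pcdh17 and Pcdh19, where 32.6% of all genes were called. On the sums Pcdh17 was 390.0 ± 119 CPM against 203 ± 137 (0.94 ± 0.47, adjusted p = 0.17), and the other 4 members lay between -0.65 and 0.50. In CM both tracers were used, but tracer cannot be told apart from amplification date, which the 4 AAV and 3 DiI libraries did not share. The AAV libraries came from 2 females and 2 males and the DiI libraries from 3 males. Between them 0 of 6 members were called by edgeR (0 at an unadjusted p under 0.05, and 0 by DESeq2). Of all genes 0.00605% were called there by edgeR, while DESeq2 called 473 of 16527. Pcdh7 was 147 ± 17.1 CPM with AAV and 210.1 ± 11.3 with DiI, with ranges that did not overlap (-0.52 ± 0.42, adjusted p = 0.98). Pcdh19 was 243 ± 30.9 CPM with AAV and 202 ± 9.81 with DiI, also with ranges apart (0.27 ± 0.51). The single AAV library of AM had 401 CPM of Pcdh19, and the 4 DiI libraries of AM reached 313. How often such ranges are apart over all genes was not analysed here.

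Across the 22 nucleus means of log2 CPM, the members did not follow a common order. These correlations are descriptions over nuclei that share animals, dates and tracers. Pcdh9 ran against the delta-2 members, with Pearson's r of -0.66 with Pcdh19 (Spearman's rho -0.49), -0.56 with Pcdh10 (-0.54) and -0.54 with Pcdh17 (-0.62). Without the nuclei AV and VB, farthest from the median of Pcdh9, r was -0.58, -0.38 and -0.55. The largest positive r, between Pcdh1 and Pcdh10, was 0.69 (rho 0.37) and 0.44 without AD. The r of 0.66 between Pcdh1 and Pcdh7 and of 0.63 between Pcdh7 and Pcdh10 rested on AD, and without it r was 0.07 and 0.19. Pcdh7 and Pcdh19 had an r of -0.04 with AD and of -0.67 without it. With AD removed the largest positive r was that of Pcdh17 and Pcdh19 (0.49, and 0.45 with AD), which fell to 0.04 without LGd and VB. Pcdh10 and Pcdh19 had an r of 0.47, which was 0.38 without AD and 0.42 without AD and AV.

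**Figure D4:**
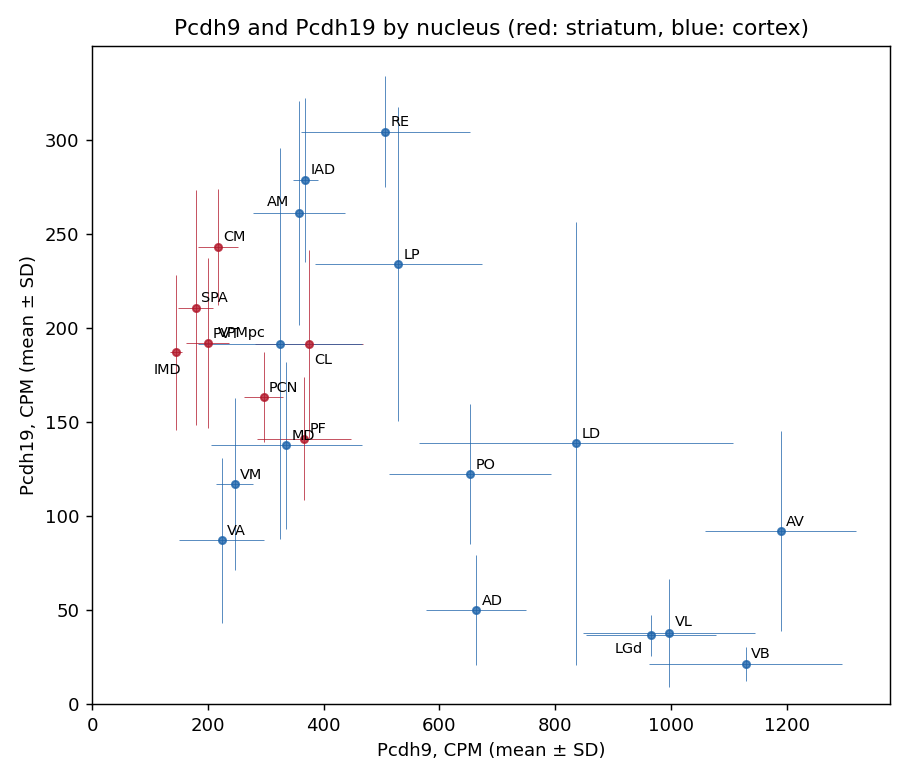
Mean CPM of Pcdh9 (horizontal axis) and Pcdh19 (vertical axis) in the 22 nuclei, with SDs over libraries, red for nuclei labelled from striatum and blue from cortex. VB, VL and LGd lie at high Pcdh9 and at most 38.0 CPM of Pcdh19, and RE, IAD and AM at the top.

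The genes whose order over the 22 nuclei was most like that of each member were taken from 10567 genes with a nucleus mean of at least 10 CPM, by Pearson's r. For Pcdh7 they were Epha4, an ephrin receptor (0.95, and 0.84 without AD), Tmem132b (0.89, 0.30 without AD) and the transcription factor Nr2f1 (0.88, 0.39 without AD). For Pcdh9 they were Mdm4, a regulator of p53 (0.89), Stat6 (0.89) and the histone demethylase Kdm7a (0.86), which were 0.87, 0.88 and 0.84 without IMD. For Pcdh10 they were the receptor phosphatase Ptprg (0.92), the synaptic adhesion protein Lrrtm3 (0.90) and Gpr4 (0.85), which were 0.89, 0.86 and 0.77 without AD. For Pcdh17 they were Nxph1, a ligand of neurexins (0.86), Fhl1 (0.82) and the NMDA receptor subunit Grin3a (0.81), and without LGd these were 0.66, 0.36 and 0.67. For Pcdh19 they were Prr36 (0.94), the amino acid transporter Slc7a3 (0.93) and Gpm6a, a membrane glycoprotein of neurons (0.93), which were 0.92, 0.91 and 0.91 without VB. For Pcdh1 they were Lingo1 (0.86), Zfp710 (0.83) and the inhibitory synapse protein Nlgn2 (0.81), which were 0.69, 0.75 and 0.67 without AD.

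Pcdh11x had its highest nucleus mean in CM (117 ± 16.6 CPM, SD, n = 4) and its lowest in IAD (0.0180 ± 0.0311, n = 3) and AM (0.243 ± 0.150, n = 4). Pcdh18 was highest in SPA (70.0 ± 11.5, n = 4) and under 2 CPM on average in AD, LD, LGd, VB, AV, PO and VL. Pcdh8 reached at most 14.8 ± 16.3 CPM (VM, n = 6). Pcdh20, a non-clustered relative, was highest in RE (47.2 ± 15.4, n = 8) and IAD (21.8 ± 12.7, n = 3), with no read in CL, PVT and MD. All 4 were called over the 22 nuclei by edgeR, as were 55.1% of all genes. In the 4 AD libraries together Pcdh11x had 258 reads, Pcdh8 had 0, Pcdh18 had 1 and Pcdh20 had 2. Pcdh8 and Pcdh20 also had 0 reads in MD, and Pcdh18 had 2 in LD.

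Of 21 genes for partners and regulators of these proteins (Cdh2, WAVE complex subunits, protein phosphatase 1, Set, Taok2, Dlg4, Mef2 factors and others), 16 differed among the 22 nuclei by edgeR, against 55.1% of all genes. Between striatum-labelled and cortex-labelled nuclei 3 were higher and 2 lower, where 18.4% of all genes were called, with a median log2 difference of -0.13 against -0.08 for all genes. Cdh2, the classical cadherin N-cadherin, was 155 ± 55.8 CPM (SD, 7 nuclei) against 301 ± 117 (15 nuclei), a log2 difference of -0.86 ± 0.23 (SE, adjusted p = 0.0095). The WAVE complex protein Cyfip2 was 846 ± 113 CPM against 1112 ± 185 (-0.34 ± 0.11, adjusted p = 0.028). Ppp1ca (0.91 ± 0.22, adjusted p = 0.0048) and the WAVE subunit Brk1 (0.77 ± 0.21, 0.013) were higher. Between LP and LGd 1 partner gene was higher in LP, Mef2a (0.89 ± 0.18, adjusted p = 2.4e-04), and 1 was lower, Mef2c (-0.87 ± 0.25, 0.029). Of all genes 3.62% were called there. The list's median was 0.21, and that of all genes 0.10. Of 40 clustered protocadherin genes in the table, which share exons so that reads can be split between them, 10 differed over the 22 nuclei, against 55.1% of all genes. Of these 40, 4 were called between striatum-labelled and cortex-labelled nuclei, all lower in the former, where 18.4% of all genes were called, with a median log2 difference of -0.33 over the 40.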

How the data were processed

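The authors deposited 1 table of raw read counts per gene for the 120 libraries, a whole-number count with no normalization. Per the submitters' processing notes, cutadapt 1.16, STAR 2.5.3a and featureCounts 1.52 were used with build mm10. Genes with low counts were removed with filterByExpr (minimum count 10, minimum total 15), which left 16527 genes. Counts were fitted with edgeR 4.0.16 in R 4.3.3 (quasi-likelihood, TMM sizes), with 1 coefficient per group over all 24 groups and p-values adjusted over all genes (Benjamini-Hochberg), called under 0.05. CPM used the TMM sizes. Striatum-labelled and cortex-labelled nuclei were compared on counts summed per nucleus (15440 genes). Likeness was ranked over genes with at least 10 CPM in their highest nucleus, leaving out Gm and Rik models, and the 3 with the highest Pearson's r were named. Of the partner list, at most 2 called genes per direction were named. A gene of that list is not reported here and is left out of its counts and medians.

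The members and lists were chosen with earlier results of these data known. Same-numbered libraries came from the same animal in 4 of 4 numbers for AM and RE, 3 of 6 for VM and VL, 2 of 4 for AD and AV and at most 1 elsewhere, as the recorded animals show, and the correlation of their deviations from group means lay between -0.11 and 0.11 over the pairs. Only AM and RE are therefore paired by number. Whatever the number, 4 animals gave libraries to both AM and RE. The count was 3 each for VM and VL, AD and AV, LD and AV, and RE and IAD, 2 for VA and VM and at most 1 elsewhere. The alternatives were RLE size factors, no filter, DESeq2 1.42.0, fits of the compared groups alone, sex, amplification date, replicate number or animal as a term or block, and each library of the groups of up to 5 left out. Fits within shared dates, without animals recorded as older than 400 or without VA replicate 6 were among the alternatives too. The text reports counts and CPM only from these fits and sizes.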

Additional observations from a re-analysis of the deposited data

Results flagged for a closer look

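A library far from the rest of its group was found in 10 of 120 sets of 1 gene and 1 group (8.33%), where chance alone marks about 1 in 20. The low ones were Pcdh1 in VA replicate 3 (126 CPM), the library with the most oligodendrocyte marker RNA (3345 CPM), Pcdh7 in PCN replicate 2 (114 CPM) and CL replicate 1 (125 CPM), and Pcdh9 in VL replicate 1 (714 CPM). The high ones were Pcdh7 in VPMpc replicate 2 (842 CPM), from an animal recorded as older than 400, Pcdh10 in VL replicate 6 (363 CPM), Pcdh17 in RE replicate 3 (521 CPM) and LP replicate 6 (267 CPM), and Pcdh19 in PCN replicate 3 (198 CPM) and SPA replicate 2 (303 CPM). Whether oligodendrocyte RNA or age has a part in these values was not tested.

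The LP-LGd and PO-VB differences differed for Pcdh17, by 5.54 on the log2 scale, as tested by the interaction term of the edgeR fit. In LGd Pcdh17 was at most 4.17 CPM, and in LP, PO and VB no library was below 21.5 CPM.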

How the results depend on the processing

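Of 32 calls of a member in a comparison, 17 were kept under every alternative run for it, 15 were lost under at least 1 and 0 reversed. Over the 11 pairs the 25 calls became 21 to 25 when each of 26 libraries was left out and 22 to 27 under other settings. With the amplification date as a term 18 of 25 were kept (9 pairs), within shared dates 14 of 20 (8 pairs) and with the animal as a block 6 of 9 (6 pairs), where 1 other was gained, 7 in all. Over all genes the date term also lowered the number called in each of the 9 pairs. It went from 909 to 116 for LD and AV, from 1112 to 304 for AD and LD and from 438 to 222 for PO and VB. For LP and LGd it went from 599 to 573. Within shared dates 104 of 12449 genes were called for PO and VB and 677 of 12575 for LP and LGd. The 5 striatal calls became 3 to 5 over 27 left-out libraries, the fewest without SPA replicate 1. Calls were carried over here too where a comparison did not hold the library. The class comparison kept 1 call without each nucleus in turn, and gave 2 calls within dates that hold both classes and 4 in the fit of single libraries. The tracer comparison in CM gave 0 calls in each of its 7 leave-outs. The 22-nucleus test called 6 and the interaction 1 in every setting.

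With the replicate number as a block the pairs gave 25 calls, the striatal comparisons 5 and the interaction 1, so the block changed none of these counts. The date could not be fitted for RE and IAD, AM and IAD, PVT, IMD, SPA, the CM tracers or the 22-nucleus test. Pcdh7 in AD and Pcdh17 in LGd rest on 8 and 83 reads, so their folds are limited by counting.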
